A study of Mus musculus with 14 samples.

Results

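The insulin-like growth factor (IGF) axis was examined across cells sorted from chronically injured mouse liver. Its members were taken by symbol: the ligand Igf1, the receptor Igf1r, the acid-labile subunit Igfals and the 7 binding protein genes Igfbp1 to Igfbp7. These are 10 of the 20377 symbols in the deposited expression table, and where a symbol has several transcript rows, the one with the largest mean over all libraries was taken. IGF-I is a growth factor made largely by hepatocytes in response to pituitary growth hormone. It circulates in a ternary complex with a binding protein and the acid-labile subunit and acts through the receptor tyrosine kinase IGF1R, which adult hepatocytes carry at very low levels. The binding proteins hold IGFs in reserve, prolong their life or block their access to the receptor, and several also act at the cell surface without IGF.

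RNA was sequenced from 3 populations sorted from livers of C57BL/6 mice that were chimeras, with mature hepatocytes labelled by a red fluorescent protein. Hepatocyte-derived ductal cells (5 libraries) came from the donor, were positive for the red protein mTomato, and fell in the ductal gate, which is MIC1-1C3 positive, low in side scatter and negative for CD11b, CD26, CD31 and CD45. Cholangiocyte-derived ductal cells (5 libraries) came from the host and fell in the same gate without the red protein. Hepatocytes (4 libraries) were sorted from the same kind of liver. All 3 groups received 0.1% DDC, a porphyrinogenic compound that injures bile ducts and provokes a ductular reaction, over 5 to 8 weeks, so no uninjured liver enters any comparison. The labels used here give no further genotype of host or donor, no age, and no statement that libraries with different numbers came from different mice. P-values therefore measure the spread between these samples, which may be technical. Origin rests on the marker alone.

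Estimated depth was 17200000 to 28050000 reads per library. Values are RPKM, reads scaled to transcript length and library size, which allows levels of different genes to be set side by side. The labelled cell types matched their markers in the main. The summed RPKM of 8 biliary markers was 17072 to 19913 in hepatocyte-derived ductal cells, 20502 to 22112 in cholangiocyte-derived ductal cells and 607 to 1420 in hepatocytes. The summed RPKM of 8 hepatocyte markers was 4723 to 9523, 2998 to 4469 and 46035 to 64322 in the same order of groups. Krt19, a defining biliary keratin, averaged 42.5 RPKM in hepatocyte-derived and 658 RPKM in cholangiocyte-derived ductal cells. Not all biliary markers differed in this way. Of the 8, 4 were lower in hepatocyte-derived than in cholangiocyte-derived cells at an adjusted p under 0.05 (limma), and 4 were not called. Hepatocyte library 118 stood apart: its 13 macrophage markers summed to 1551 RPKM, against 31.8 to 42.3 RPKM in the other hepatocyte libraries, its 12 endothelial markers to 222 against 7.11 to 16.9 RPKM, and its 12 stellate and fibroblast markers to 157 against 4.92 to 7.40 RPKM. The stellate and fibroblast list also summed to 442 and 512 RPKM in cholangiocyte-derived libraries 118 and 220, against 37.9 to 89.1 RPKM in the other cholangiocyte-derived libraries. Values without hepatocyte library 118 are given beside the results that it moved most. In sorted bulk samples, fewer cells of a type and less RNA per cell cannot be told apart.

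The starts of 2 binding protein genes that differed in opposite directions are shown here, since Igfbp1 was lower in both ductal groups than in hepatocytes and Igfbp7 was the most abundant member of both ductal groups. Both windows are from RefSeq on build GRCm38.p6, read 5′ to 3′ on the gene's strand from 250 bases before to 50 bases after the start. The Igfbp1 window is chr11:7197537-7197836 on the plus strand. Its capitals mark the motif CAAAACAAACTTATTTTG, known from the human gene as the insulin response element bound by FOXO1. The Igfbp7 window is chr5:77407996-77408295 on the minus strand, and its capitals mark CG dinucleotides.
Igfbp1: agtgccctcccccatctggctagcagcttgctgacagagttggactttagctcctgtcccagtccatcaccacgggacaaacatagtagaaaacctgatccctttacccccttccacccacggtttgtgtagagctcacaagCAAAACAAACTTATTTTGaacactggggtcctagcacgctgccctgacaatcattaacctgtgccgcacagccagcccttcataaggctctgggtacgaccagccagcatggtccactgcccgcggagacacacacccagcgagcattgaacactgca
Igfbp7: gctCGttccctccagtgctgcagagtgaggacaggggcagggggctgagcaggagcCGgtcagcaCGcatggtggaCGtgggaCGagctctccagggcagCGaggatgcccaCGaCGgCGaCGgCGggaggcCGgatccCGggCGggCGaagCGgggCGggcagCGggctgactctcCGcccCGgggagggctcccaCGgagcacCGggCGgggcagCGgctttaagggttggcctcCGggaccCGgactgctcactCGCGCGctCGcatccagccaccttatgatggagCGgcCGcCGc

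All 10 members matched a RefSeq window, with 13 windows in all. The 18-letter motif was read off the Igfbp1 window itself, so its presence there was given in advance. It lay 108 to 91 bases before the Igfbp1 start. Searched on both strands as an exact string, it was in no other of 32851 promoter windows of the same length (0.00304%). Its first letters, CAAAACA, occurred in 6.28% of windows and in no other member's window. The letters TATAAA, in 13.6% of all windows, were found in the Igfbp4 window and on the reverse strand of the Igfbp6 window. The Igfbp7 window held 33 CG dinucleotides and the Igfbp1 window 8, against a median of 7 over all windows. The Igf1r window held 48, Igfbp3 37, Igfbp4 27 and Igf1 6. These are counts of letters and do not show binding.

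Against hepatocytes, the IGF axis of hepatocyte-derived ductal cells was lower for the ligand side. It was higher for the receptor and for 3 binding proteins, but the higher calls other than that of Igfbp7 follow from the filter, as described below. By limma with Benjamini-Hochberg adjustment over 12638 tested genes, 4 members were higher (Igf1r, Igfbp3, Igfbp6 and Igfbp7), 4 lower (Igf1, Igfals, Igfbp1 and Igfbp2) and 2 not called (Igfbp4 and Igfbp5), at an adjusted p under 0.05. Of all tested genes 81.0% were called in this comparison, 66.2% as higher and 14.8% as lower. The median log2 fold change was -0.22 over the members and 0.67 over all tested genes. Library values of 6 members did not overlap between the groups, as for 72.2% of tested genes.

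Against the same hepatocyte libraries, cholangiocyte-derived ductal cells had 5 members higher (Igf1r, Igfbp3, Igfbp5, Igfbp6 and Igfbp7) and 5 lower (Igf1, Igfals, Igfbp1, Igfbp2 and Igfbp4). After quantile normalization the higher ones numbered 3, without Igfbp5 and Igfbp6. Of all tested genes 84.4% were called, 67.1% as higher and 17.4% as lower. The median log2 fold change was -0.50 over the members and 0.76 over all tested genes. Groups did not overlap for 9 members, as for 75.2% of tested genes. Both comparisons use the same hepatocyte libraries, so their values are not independent.

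Hepatocyte-derived against cholangiocyte-derived ductal cells had 4 members higher (Igfals, Igfbp1, Igfbp4 and Igfbp6), 2 lower (Igf1r and Igfbp5) and 4 not called (Igf1, Igfbp2, Igfbp3 and Igfbp7). The share called among all tested genes was 36.2%, with 15.1% higher and 21.0% lower. The median log2 fold change was 0.18 over the members and -0.03 over all. The groups did not overlap for 6 members, as for 33.8% of tested genes. All 10 members passed the filter of 1 RPKM in 4 libraries, Igf1r through the ductal libraries alone and Igfbp5 only through the cholangiocyte-derived libraries. Igfbp3 and Igfbp6 also needed the ductal libraries. Igfbp3 was under 1 RPKM in hepatocyte libraries 225, 248 and 611, and Igfbp6 in 225 and 611. The calls of Igf1r, Igfbp3 and Igfbp6 against hepatocytes therefore follow from the filter and are no support. The same holds for Igfbp5 in the 2 comparisons with cholangiocyte-derived cells. Without these calls, only Igfbp7 was higher against hepatocytes in each ductal group. Only 1 (Igf1r) was then lower in hepatocyte-derived than in cholangiocyte-derived cells.

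The positive medians over all genes against hepatocytes depend on scaling. Rescaling by median ratios moved them to 0.01 for hepatocyte-derived and 0.05 for cholangiocyte-derived ductal cells. The calls over all genes against hepatocytes then split into 4670 higher and 4613 lower for hepatocyte-derived cells, where the deposited scale gave 8363 and 1873. For cholangiocyte-derived cells the split was 5050 and 4821, where the deposited scale gave 8475 and 2195. Fold changes of the members after rescaling are given below wherever a call rests on the scale.

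**Figure D1:**
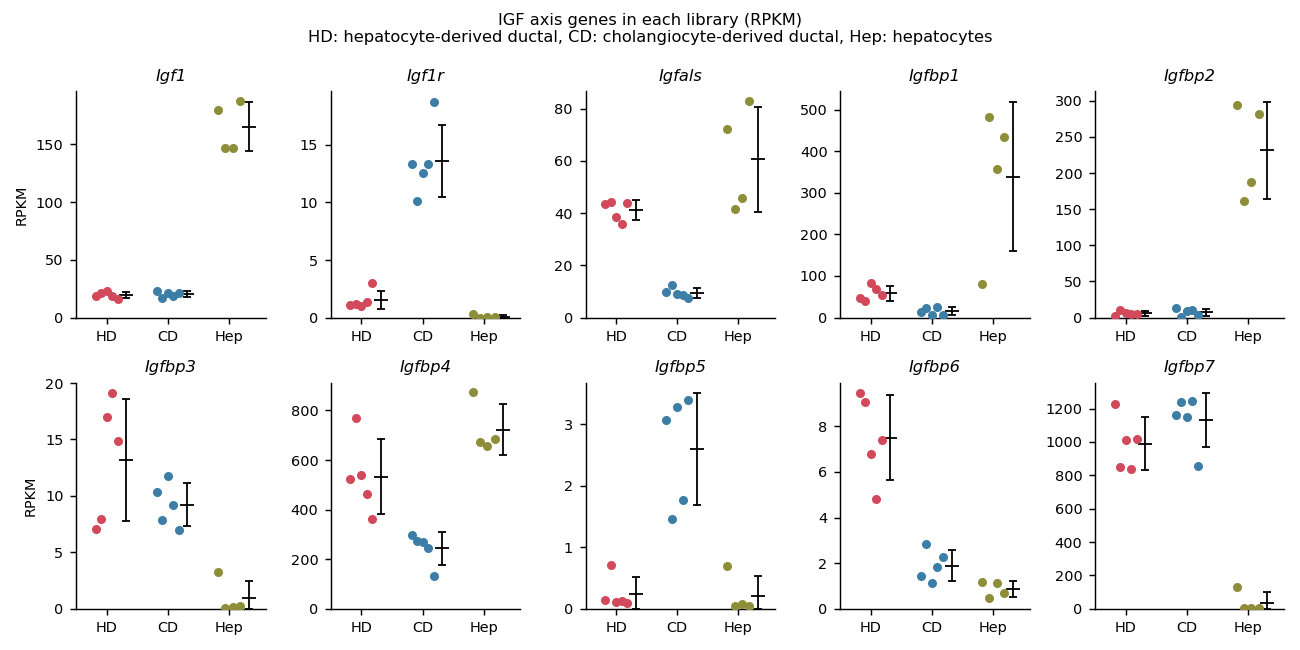
RPKM of each IGF axis gene in every library (points) for hepatocyte-derived ductal cells (HD), cholangiocyte-derived ductal cells (CD) and hepatocytes (Hep), with the mean and SD as a bar cut at 0. Igf1 and Igfbp2 were low in both ductal groups, Igf1r and Igfbp5 were highest in cholangiocyte-derived cells, and Igfbp7 averaged 990 and 1131 RPKM in the ductal groups.

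Igf1, the ligand gene (chr10:87323856-87378515, mm9, plus strand), was lower in both ductal groups than in hepatocytes. Its RPKM was 16.3 to 22.8 with a median of 19.1 in the hepatocyte-derived libraries, 17.3 to 23.0 with a median of 21.5 in the cholangiocyte-derived libraries and 147 to 187 with a median of 163 in the hepatocyte libraries. No ductal library came near a hepatocyte library, and the 2 ductal groups overlapped. The mean was 19.6 ± 2.47 RPKM in hepatocyte-derived cells, 20.4 ± 2.38 RPKM in cholangiocyte-derived cells and 165 ± 21.4 RPKM in hepatocytes (SD, n = 5, 5 and 4). The log2 fold change was -3.01 ± 0.11 (SE, adjusted p = 2.50e-11, limma) for hepatocyte-derived cells and -2.96 ± 0.11 (adjusted p = 1.29e-11, limma) for cholangiocyte-derived cells. Between the ductal groups it was -0.06, with a 95% interval of -0.29 to 0.17 and an adjusted p of 0.73 (limma). Macrophage markers, whose cells can also make Igf1, summed to 25.6 RPKM in hepatocyte-derived library 219 and to 133 to 172 RPKM in the other hepatocyte-derived libraries. Igf1 was 19.1 RPKM in library 219 and 16.3 to 22.8 RPKM in the others. In cholangiocyte-derived library 219, which had the lowest macrophage sum of its group (50.4 RPKM, against 222 to 437 RPKM), Igf1 was the lowest of its group at 17.3 RPKM. That order depended on the transcript row. On row NM_010512 the same library was the highest of its group, at 22.1 RPKM against 17.6 to 20.8 RPKM. Hepatocyte-derived library 219 was also the highest of its group on that row, at 24.2 RPKM against 18.7 to 22.3 RPKM. The part of macrophage transcripts in Igf1 was not tested.

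The size of the Igf1 difference depended on the transcript row. Row NM_184052, which represents the gene, ends 21277 bases before the other 4 rows. Its mean was 0.118 times the hepatocyte mean in hepatocyte-derived and 0.123 times in cholangiocyte-derived ductal cells. The other 4 rows gave 0.271 to 0.276 times in hepatocyte-derived and 0.257 to 0.26 times in cholangiocyte-derived cells. The ratio of NM_184052 to NM_010512 averaged 0.935 ± 0.157 in hepatocyte-derived cells, 1.03 ± 0.154 in cholangiocyte-derived cells and 2.14 ± 0.176 in hepatocytes (SD, n = 5, 5 and 4). Every ductal library lay below every hepatocyte one, at 1.21 or less against 1.92 or more. This is a description with no test: NM_184052 was taken for its highest mean, which its hepatocyte values set, and the 2 rows were set against each other after their values were seen. They share exons, and how the authors divided shared reads is not given in the sources used here. With all rows summed, the log2 fold change of Igf1 against hepatocytes was -2.19 in hepatocyte-derived cells (adjusted p = 3.80e-11, limma) and -2.23 in cholangiocyte-derived cells (adjusted p = 1.36e-11, limma).

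**Figure D2:**
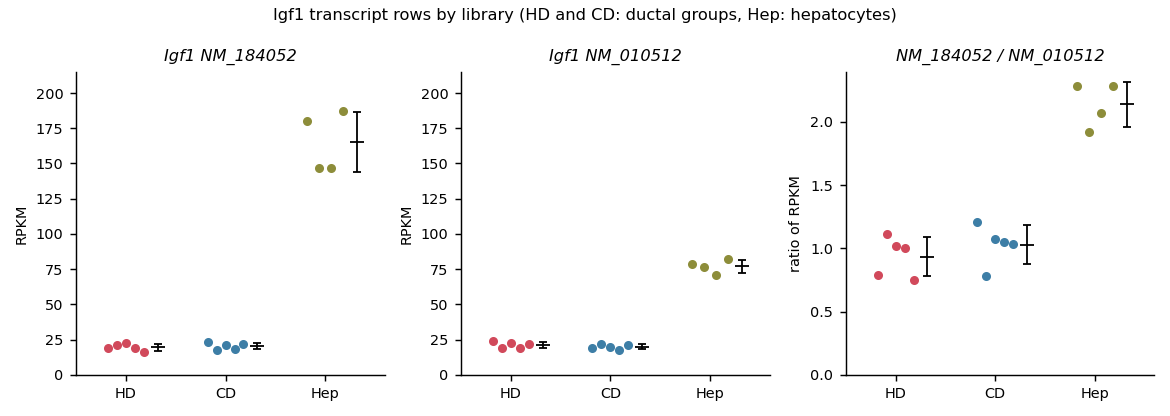
RPKM of 2 Igf1 transcript rows and their ratio in every library (points), with mean and SD. NM_184052 and NM_010512 averaged 19.6 and 21.2 RPKM in hepatocyte-derived ductal cells, 20.4 and 19.9 RPKM in cholangiocyte-derived ductal cells, and 165 and 77.1 RPKM in hepatocytes.

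Igfals (chr17:25015715-25018953, mm9, plus strand) encodes the acid-labile subunit, which completes the circulating ternary complex with IGF and IGFBP-3 or IGFBP-5. Its RPKM was 43.5, 44.3, 38.5, 35.9 and 43.9 in the hepatocyte-derived libraries 219, 220, 225, 248 and 611, against 9.71, 12.5, 9.04, 8.76 and 7.39 in the cholangiocyte-derived libraries 118, 219, 220, 225 and 611. It was 72.4, 41.6, 45.7 and 82.9 in hepatocyte libraries 118, 225, 248 and 611. Hepatocyte-derived cells lay above every cholangiocyte-derived library, by 4.35 times in the mean, and overlapped hepatocytes, of which library 225 lay inside their range. The difference between ductal groups was 2.02 ± 0.18 on the log2 scale (SE, adjusted p = 5.61e-07, limma). Against hepatocytes, the log2 fold change was -0.49 ± 0.19 in hepatocyte-derived cells (adjusted p = 0.0257, limma) and -2.51 ± 0.19 in cholangiocyte-derived cells (adjusted p = 1.00e-08, limma). The call in hepatocyte-derived cells was lost without hepatocyte library 118 (adjusted p = 0.0787, limma), without hepatocyte library 611 (0.106) or without hepatocyte-derived library 248 (0.0575), and after rescaling the difference was -1.28 (adjusted p = 3.28e-05, limma). Hepatocyte-derived cells held 68.0% of the hepatocyte mean of Igfals, and 13.1% of that of albumin, while cholangiocyte-derived cells held 15.6% and 8.07%.

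Igf1r (chr7:75097143-75378553, mm9, plus strand), the receptor, ordered the groups the other way, highest in cholangiocyte-derived cells. Its RPKM was 1.07, 1.21, 1.04, 1.34 and 2.98 in hepatocyte-derived libraries 219, 220, 225, 248 and 611, against 13.3, 10.2, 12.6, 13.3 and 18.7 in cholangiocyte-derived libraries 118, 219, 220, 225 and 611. In hepatocytes it was 0.27 in library 118, and 0, 0.04 and 0.05 in libraries 225, 248 and 611. The 3 groups did not overlap. The log2 fold change of hepatocyte-derived against cholangiocyte-derived cells was -2.56 ± 0.18 (SE, adjusted p = 8.39e-08, limma). Against hepatocytes it was 1.17 ± 0.20 in hepatocyte-derived and 3.73 ± 0.20 in cholangiocyte-derived cells. Those against hepatocytes are given as descriptions with no test, since the gene passed the filter through the ductal libraries. Hepatocyte-derived cells had 0.112 times the mean RPKM of cholangiocyte-derived cells. Hepatocyte-derived and cholangiocyte-derived cells had 17 and 151 times the hepatocyte mean, or 50.9 and 454 times without hepatocyte library 118, a group listed at or near 0 whose values are few reads. Both Igf1r and the biliary markers Krt19 and Epcam were highest in library 611 among hepatocyte-derived libraries, with Krt19 at 81.8 RPKM against 23.4 to 43.7 RPKM and Epcam at 136 against 60.8 to 81.9 RPKM. The sum of all 8 biliary markers did not single out library 611. It was 18353 RPKM there, against 19913, 18267, 17072 and 19414 RPKM in libraries 219, 220, 225 and 248. Most of that sum was Spp1, which averaged 17560 RPKM in the group. The part of biliary transcripts in the Igf1r value was not tested.

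**Figure D3:**
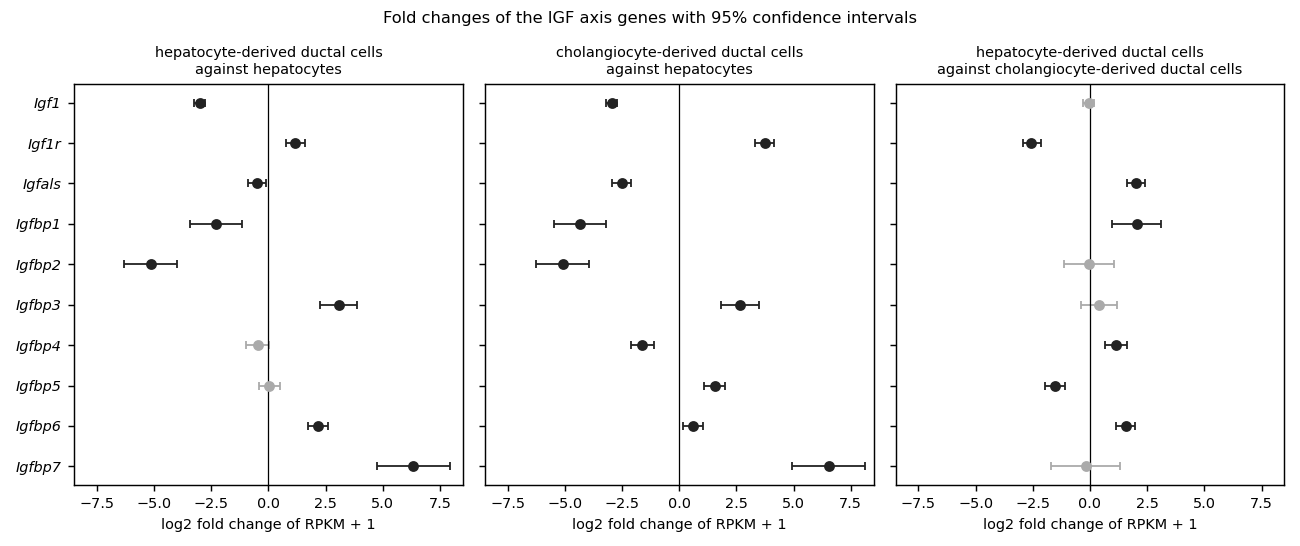
Log2 fold changes on the log2(RPKM + 1) scale (points) with 95% confidence intervals from limma for 3 comparisons, black where called at an adjusted p under 0.05 and grey where not. Igfbp2 at -5.15 and Igfbp7 at 6.34 lay farthest from 0 in hepatocyte-derived ductal cells against hepatocytes, while Igf1r at -2.56 and Igfbp1 at 2.05 stood out between the ductal groups.

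Of the binding proteins that hepatocytes make, Igfbp2 was the most depleted in ductal cells. Igfbp2 (chr1:72871077-72899045, mm9, plus strand) codes for a carrier of both IGFs that is abundant in serum. Its RPKM was 2.25, 11.0, 6.10, 5.55 and 4.69 in hepatocyte-derived libraries 219, 220, 225, 248 and 611, and 12.6, 0.58, 9.33, 10.01 and 3.89 in cholangiocyte-derived libraries 118, 219, 220, 225 and 611. Hepatocyte libraries 118, 225, 248 and 611 had 295, 161, 187 and 282. All ductal libraries were low and all hepatocyte libraries high. The log2 fold change was -5.15 ± 0.54 for hepatocyte-derived cells (SE, adjusted p = 5.57e-07, limma) and -5.10 ± 0.54 for cholangiocyte-derived cells (adjusted p = 4.80e-07, limma). The ductal groups held 2.56% and 3.15% of the hepatocyte mean. Between them the difference was -0.04, with a 95% interval of -1.13 to 1.05 (adjusted p = 0.96, limma).

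Igfbp1 (chr11:7097790-7102549, mm9, plus strand), an insulin-repressed hepatic binding protein whose promoter is shown above, formed a gradient. Its RPKM was 45.9, 39.1, 82.9, 69.6 and 54.4 in hepatocyte-derived libraries 219, 220, 225, 248 and 611, against 14.4, 23.7, 5.68, 25.7 and 6.44 in cholangiocyte-derived libraries 118, 219, 220, 225 and 611. It was 81.6 in hepatocyte library 118 and 482, 358 and 435 in hepatocyte libraries 225, 248 and 611. Hepatocyte-derived library 225 overlapped hepatocyte library 118, and without library 118 the groups did not overlap. Against hepatocytes the log2 fold change was -2.29 ± 0.53 for hepatocyte-derived cells (SE, adjusted p = 0.00103, limma) and -4.35 ± 0.53 for cholangiocyte-derived cells (adjusted p = 2.18e-06, limma). Without hepatocyte library 118 these were -2.88 (adjusted p = 2.26e-05, limma) and -4.94 (adjusted p = 7.71e-08, limma). Hepatocyte-derived cells exceeded cholangiocyte-derived cells by 2.05 ± 0.50 (adjusted p = 0.00456, limma).

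Igfbp4 (chr11:98902574-98913957, mm9, plus strand), an inhibitory binding protein that PAPP-A cleaves, was the second most abundant member in both ductal groups and the most abundant in hepatocytes. Its RPKM was 361 to 772 with a median of 524 in hepatocyte-derived cells, 132 to 298 with a median of 268 in cholangiocyte-derived cells and 655 to 875 with a median of 678 in hepatocytes. Hepatocyte-derived libraries lay above every cholangiocyte-derived library and overlapped hepatocytes through library 220. The log2 fold change between the ductal groups was 1.14 ± 0.22 (SE, adjusted p = 0.00102, limma), and in cholangiocyte-derived cells against hepatocytes it was -1.61 ± 0.24 (adjusted p = 1.70e-05, limma). Hepatocyte-derived cells differed from hepatocytes by -0.47 ± 0.24 (adjusted p = 0.0804, limma), which was not called, and the value depended on scaling, at -1.28 after rescaling (adjusted p = 2.46e-04) and 0.31 after quantile normalization (adjusted p = 0.218). It was called without hepatocyte-derived library 220 (-0.62, limma adjusted p = 0.0228) and without cholangiocyte-derived library 611 (-0.47, limma adjusted p = 0.0248).

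Igfbp7 (chr5:77778265-77837070, mm9, minus strand) encodes a secreted low-affinity IGF and insulin binder, also called IGFBP-related protein. It was the highest member of both ductal groups. Its RPKM was 1228, 852, 1013, 838 and 1018 in hepatocyte-derived libraries 219, 220, 225, 248 and 611, and 1163, 1241, 1150, 1246 and 857 in cholangiocyte-derived libraries 118, 219, 220, 225 and 611. Hepatocyte libraries had 130 in library 118, and 2.34, 5.01 and 7.18 in libraries 225, 248 and 611. The ductal groups overlapped, and neither overlapped hepatocytes. On the log2 scale the difference was 6.34 ± 0.74 for hepatocyte-derived cells (SE, adjusted p = 1.86e-06, limma) and 6.53 ± 0.74 for cholangiocyte-derived cells (adjusted p = 1.10e-06, limma). Hepatocyte-derived and cholangiocyte-derived cells held 27.4 and 31.3 times the hepatocyte mean, and 204 and 234 times without hepatocyte library 118. Library 118 also carried endothelial and stellate markers, and Igfbp7 is made by such cells, but their part was not tested. Between the ductal groups the difference was -0.19, with a 95% interval of -1.70 to 1.31 (adjusted p = 0.862, limma). Igfbp7 was 1228 RPKM in hepatocyte-derived library 219, which had the lowest summed endothelial markers of its group (20.9 RPKM, against 43.2 to 54.7 RPKM).

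Igfbp3 (chr11:7106096-7113926, mm9, minus strand), the principal serum carrier of IGFs, was low in hepatocytes and higher in both ductal groups. Its RPKM was 7.09, 7.94, 17.0, 19.1 and 14.8 in hepatocyte-derived libraries 219, 220, 225, 248 and 611, and 10.3, 7.89, 11.7, 9.17 and 6.94 in cholangiocyte-derived libraries 118, 219, 220, 225 and 611. In hepatocytes it was 3.24 in library 118 and 0.04, 0.15 and 0.24 in libraries 225, 248 and 611. No ductal library overlapped a hepatocyte library. Against hepatocytes the log2 fold change was 3.07 ± 0.38 for hepatocyte-derived cells and 2.67 ± 0.38 for cholangiocyte-derived cells (SE). Ratios of means were 14.4 and 10, or 91.9 and 64.2 without library 118. These are descriptions with no test, since the gene passed the filter through the ductal libraries. Between the ductal groups the difference was 0.40, with a 95% interval of -0.38 to 1.18 (adjusted p = 0.437, limma). Without hepatocyte library 118 and hepatocyte-derived library 219 it was 0.58 (adjusted p = 0.0438, limma).

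Igfbp3 and Igfbp1 are neighbours, arranged tail to tail with 3546 bases between them and no other symbol in the gap. They ran opposite ways: Igfbp1 was lower and Igfbp3 higher in each ductal group than in hepatocytes. Igfbp2 and Igfbp5 are also neighbours, tail to tail, with 5593 bases between them. In cholangiocyte-derived cells against hepatocytes Igfbp2 was lower and Igfbp5 higher. The differences of Igfbp3 and Igfbp5 from hepatocytes are descriptions with no test, and that of Igfbp5 fell to 0.41 after quantile normalization.

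Igfbp5 (chr1:72904639-72921439, mm9, minus strand) encodes a binding protein that attaches to extracellular matrix, and it separated the 2 ductal groups. Its RPKM was 0.15, 0.72, 0.11, 0.13 and 0.09 in hepatocyte-derived libraries 219, 220, 225, 248 and 611, against 3.08, 1.46, 3.28, 1.77 and 3.39 in cholangiocyte-derived libraries 118, 219, 220, 225 and 611. It was 0.70 in hepatocyte library 118 and 0.04, 0.07 and 0.04 in libraries 225, 248 and 611. Every cholangiocyte-derived library lay above every other library. The log2 fold change was -1.52 ± 0.20 for hepatocyte-derived against cholangiocyte-derived cells and 1.56 ± 0.22 for cholangiocyte-derived cells against hepatocytes (SE). Both are given as descriptions with no test, since the gene passed the filter through its high group. Hepatocyte-derived cells against hepatocytes gave 0.04 (adjusted p = 0.865, limma), and the difference was -0.08 after rescaling and -0.61 after quantile normalization (adjusted p = 0.012, limma). After quantile normalization the difference of cholangiocyte-derived cells from hepatocytes was 0.41. Cholangiocyte-derived cells held 12.2 times the hepatocyte mean, or 51.9 times without hepatocyte library 118. Igfbp5 was 1.77 and 3.39 RPKM in cholangiocyte-derived libraries 225 and 611, where the stellate and fibroblast markers summed to 37.9 and 63.4 RPKM, and 3.08 and 3.28 RPKM in libraries 118 and 220, where they summed to 442 and 512 RPKM. Of the tested stellate and fibroblast markers, 7 of 10 were lower in hepatocyte-derived than in cholangiocyte-derived cells, and their part in Igfbp5 was not tested.

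Igfbp6 (chr15:101974617-101979943, mm9, plus strand), a binding protein with a preference for IGF-II, was highest in hepatocyte-derived cells. Its RPKM was 9.47, 9.06, 6.79, 4.82 and 7.42 in hepatocyte-derived libraries 219, 220, 225, 248 and 611, against 1.42, 2.83, 1.15, 1.83 and 2.25 in cholangiocyte-derived libraries 118, 219, 220, 225 and 611. It was 1.19, 0.47, 1.15 and 0.71 in hepatocyte libraries 118, 225, 248 and 611. The hepatocyte-derived libraries lay above all others. The log2 fold change was 1.56 ± 0.19 against cholangiocyte-derived cells (SE, adjusted p = 1.40e-05, limma) and 2.17 ± 0.20 against hepatocytes. Cholangiocyte-derived cells exceeded hepatocytes by 0.61 ± 0.20. Both differences from hepatocytes are descriptions with no test, since the gene passed the filter through the ductal libraries. The value of 0.61 fell to 0.48 with the library number as a block and to 0.16 after rescaling. It turned to -0.74 after quantile normalization. Igf2 itself was listed at no more than 0.32 RPKM in any library.

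The 7 binding protein genes were also expressed as shares of their summed RPKM. The sum was 1607 ± 173 RPKM in hepatocyte-derived cells, 1411 ± 226 RPKM in cholangiocyte-derived cells and 1330 ± 90.7 RPKM in hepatocytes (SD, n = 5, 5 and 4). Igfbp7 made up 61.7 ± 7.59% in hepatocyte-derived cells, 80.5 ± 2.69% in cholangiocyte-derived cells and 2.62 ± 4.51% in hepatocytes, where it was 0.367% without library 118. Igfbp4 made up 32.9%, 17.0% and 54.2% of the sum in the same order of groups, and Igfbp1 3.70%, 1.04% and 25.7%. Igfbp2 held 0.372% and 0.511% of the sum in the ductal groups and 17.3% in hepatocytes. In hepatocyte library 118 Igfbp1 held 5.88%, and without that library its hepatocyte mean was 32.4%. These shares were not tested.

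**Figure D4:**
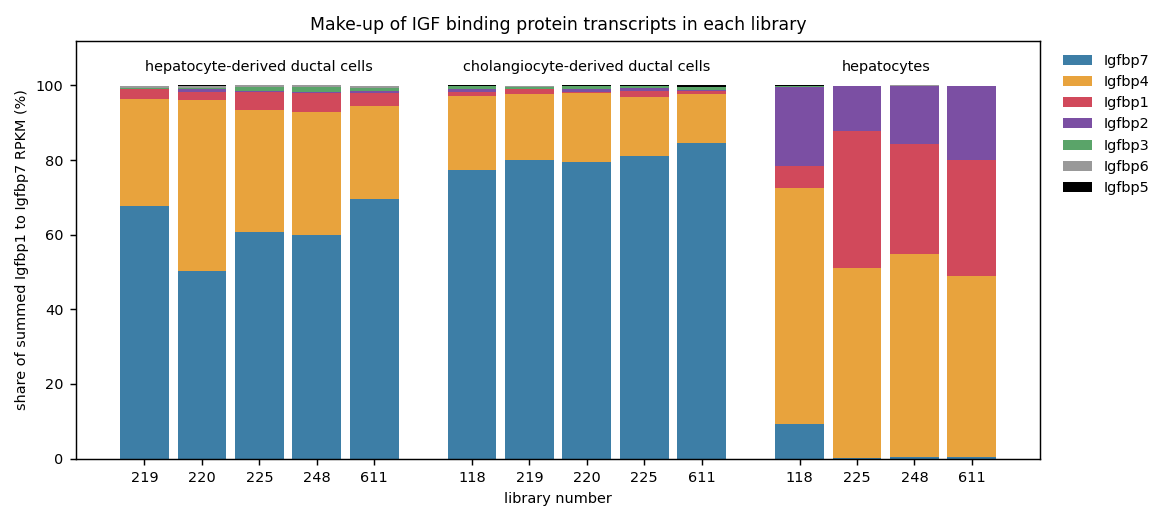
Share of the summed Igfbp1 to Igfbp7 RPKM held by each gene (stacked bars, percent) in every library, grouped by cell population. Igfbp7 filled 50.4 to 69.7% of the bar in hepatocyte-derived cells and 77.4 to 84.7% in cholangiocyte-derived cells, while in hepatocytes Igfbp4, Igfbp1 and Igfbp2 filled most of it.

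Other genes of the pathway were taken from 7 lists of 54 genes, of which 43 were tested. In hepatocyte-derived cells against hepatocytes 26 were higher and 4 lower, or 60.5% and 9.3% of those tested against 66.2% and 14.8% of all genes, although rescaling by median ratios gave 12 and 14. In cholangiocyte-derived cells against hepatocytes 27 were higher and 5 lower, or 62.8% and 11.6% against 67.1% and 17.4% of all genes, where rescaling gave 12 and 15. In hepatocyte-derived against cholangiocyte-derived cells 9 were higher and 6 lower, or 20.9% and 14% against 15.1% and 21.0% of all genes. These shares are near the background. The called differences given next kept their direction and call under both rescaling and quantile normalization, except those of Stat5a and Igf2r. Uncalled differences are not covered by this, and those of Insr against hepatocytes became calls after rescaling.

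Of 7 genes of growth hormone input, 3 were higher and 1 lower in hepatocyte-derived cells against hepatocytes, and 4 higher and 1 lower in cholangiocyte-derived cells, where rescaling gave 2 and 3 for hepatocyte-derived and 2 and 2 for cholangiocyte-derived cells. Stat5a, a transcription factor of the pathway, was among the higher ones, at 0.71 and 0.56, but stood at -0.01 and -0.20 after rescaling. Ghr, the growth hormone receptor, averaged 37.4 ± 8.40 RPKM in hepatocyte-derived cells, 13.6 ± 2.55 RPKM in cholangiocyte-derived cells and 149 ± 19.8 RPKM in hepatocytes (SD, n = 5, 5 and 4). Its log2 fold change was -1.98 ± 0.16 (SE, adjusted p = 4.89e-08, limma) in hepatocyte-derived cells, -3.37 ± 0.16 (adjusted p = 1.24e-10, limma) in cholangiocyte-derived cells and 1.39 ± 0.16 between the ductal groups (adjusted p = 6.23e-06, limma). Jak2, the kinase that the receptor engages, was higher by 1.37 ± 0.08 (SE, limma adjusted p = 1.60e-09) and 1.47 ± 0.08 (adjusted p = 4.26e-10) in hepatocyte-derived and cholangiocyte-derived cells. Socs2, a feedback inhibitor of growth hormone signalling, averaged 64.8 RPKM in hepatocyte-derived cells, 107 RPKM in cholangiocyte-derived cells and 11.4 RPKM in hepatocytes. Its log2 fold change was 2.39 ± 0.20 and 3.15 ± 0.20 in those ductal groups against hepatocytes (adjusted p = 5.82e-08 and 2.04e-09, limma).

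Among receptors and adaptors, Grb10, an adaptor that restrains IGF1R and insulin receptor signalling, was higher in both ductal groups than in hepatocytes. It ran from 24.5 to 50.6 RPKM in hepatocyte-derived cells, from 29.8 to 38.1 RPKM in cholangiocyte-derived cells and from 0.18 to 1.97 RPKM in hepatocytes. Its log2 fold change was 4.55 ± 0.26 in hepatocyte-derived cells and 4.45 ± 0.26 in cholangiocyte-derived cells (SE). Both are given as descriptions with no test, since Grb10 had a hepatocyte median of 0.455 RPKM and passed the filter through the ductal libraries. Gab1, a docking protein for PI3K, was higher by 1.89 ± 0.10 and 2.25 ± 0.10 (adjusted p = 5.13e-10 and 4.42e-11, limma). Irs1, an IGF1R substrate, averaged 3.39 RPKM in hepatocyte-derived cells, 0.756 RPKM in cholangiocyte-derived cells and 4.67 RPKM in hepatocytes, and differed between the ductal groups by 1.33 ± 0.23 (adjusted p = 4.15e-04, limma). For hepatocyte-derived cells against hepatocytes Irs1 was uncalled at -0.30 (adjusted p = 0.274, limma) and was called without hepatocyte library 118 (-0.60, adjusted p = 0.00868, limma). Insr, the insulin receptor, averaged 26.4, 20.7 and 23.3 RPKM in the same order of groups. Its log2 fold changes were 0.23 and -0.11 in hepatocyte-derived and cholangiocyte-derived cells against hepatocytes and 0.34 between the ductal groups, none of them called (limma adjusted p = 0.22, 0.543 and 0.113). After rescaling it was lower in both ductal groups, at -0.55 and -0.91 (limma adjusted p = 0.0103 and 2.08e-04). Without hepatocyte library 118, where Insr was 13.3 RPKM, cholangiocyte-derived cells were called against hepatocytes at -0.35 (limma adjusted p = 0.00129) and the ductal groups differed by 0.34 (limma adjusted p = 0.00149). Igf2r, which clears IGF-II, averaged 27.7, 33.1 and 15.0 RPKM. It was higher against hepatocytes by 0.90 and 1.15 in hepatocyte-derived and cholangiocyte-derived cells (limma adjusted p = 2.16e-04 and 1.86e-05), and after rescaling the values were 0.14 and 0.36 (limma adjusted p = 0.49 and 0.0744). Between the ductal groups Igf2r was uncalled at -0.25 (limma adjusted p = 0.256) and was called with the library number as a block (-0.39, limma adjusted p = 0.0344).

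Of the downstream and surface genes, Akt1, a kinase below PI3K, was higher by 1.20 ± 0.07 in hepatocyte-derived cells (SE, adjusted p = 1.36e-09, limma) and 1.29 ± 0.07 in cholangiocyte-derived cells (adjusted p = 3.26e-10, limma). Itga5, a subunit of an integrin that binds IGFBP-1, and Itgav, another integrin subunit, were higher by 1.99 ± 0.15 and 2.48 ± 0.31 in hepatocyte-derived cells, and by 1.75 ± 0.15 and 2.54 ± 0.31 in cholangiocyte-derived cells. Lrp1, a receptor that binds IGFBP-3, had log2 fold changes of -1.01 ± 0.30 (adjusted p = 0.00649, limma) in hepatocyte-derived and -1.85 ± 0.30 (adjusted p = 4.21e-05, limma) in cholangiocyte-derived cells.

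**Figure D5:**
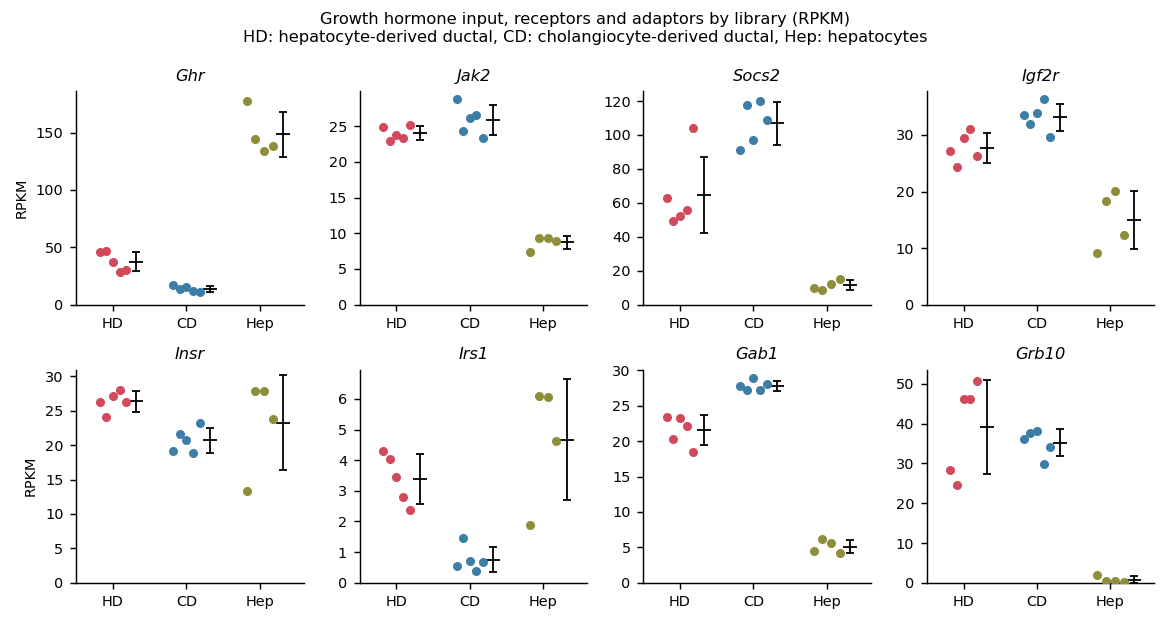
RPKM in every library (points, with mean and SD) of 8 genes of growth hormone input, receptors and adaptors for hepatocyte-derived ductal cells (HD), cholangiocyte-derived ductal cells (CD) and hepatocytes (Hep). Ghr was lowest in cholangiocyte-derived cells and Grb10 at 1.97 RPKM or less in hepatocytes, while Insr averaged 26.4, 20.7 and 23.3 RPKM across the groups.

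Set in order of mean RPKM, hepatocyte-derived cells ran from Igfbp7 (990) and Igfbp4 (532) through Igfbp1, Igfals, Igf1, Igfbp3, Igfbp6, Igfbp2 and Igf1r to Igfbp5 (0.24). Cholangiocyte-derived cells ran from Igfbp7 (1131) and Igfbp4 (243) through Igf1, Igfbp1, Igf1r, Igfals, Igfbp3, Igfbp2 and Igfbp5 to Igfbp6 (1.90). Hepatocytes ran from Igfbp4 (722) through Igfbp1, Igfbp2, Igf1, Igfals, Igfbp7, Igfbp3, Igfbp6 and Igfbp5 to Igf1r (0.09). In cholangiocyte-derived cells every neighbouring pair from Igf1 downward overlapped, while Igfbp7 and Igfbp4 overlapped no lower neighbour. In hepatocyte-derived cells Igfbp7, Igfbp4, Igfals and Igf1r stood clear of their lower neighbour, and in hepatocytes Igfbp4 and Igf1 did.

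Across the 14 libraries the pattern of each member was most like that of other genes, given as Pearson's r of log2(RPKM + 1), a description since libraries of a group share their cell type. Igf1 was most like Rdh16 and Fam55b (0.994 each), and Igfbp2 most like Cyp2a12 (0.995) and Haao (0.994). Rdh16, Cyp2a12 and Haao code for enzymes. Igf1r was most like the transporter genes Slc7a1 (0.997) and Slc12a8 (0.996). Igfbp7 was most like Sparc (0.998), which codes for a matrix protein, and Cmtm3 (0.997), and Igfals most like the plasma protein genes Vtn and Ahsg (0.978 each). The closest to Igfbp1 were Akt2 (0.966) and Cldn1 (0.963), to Igfbp3 Mxra7 (0.979) and Mcam (0.977), and to Igfbp4 Nr1h4 (0.974) and Aadat (0.971). The closest to Igfbp5 were Capn6 (0.977) and Nrtn (0.970), and to Igfbp6 Cnn3 and Anxa6 (0.962 each).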

How the data were processed

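The authors deposited 1 table of RPKM values for 14 libraries, with 1 column per library and 26005 transcript rows, whose read alignment used build mm9, Bowtie 0.12.7 and CASAVA, per the submitters' processing notes. How reads were counted, and how reads that fit several places were handled, is not stated in these sources. Per the labels' protocols, 75 to 200 ng of total RNA entered a TruSeq kit, which does not mark strand, so antisense transcripts cannot be told apart. Columns were matched to samples by title for 12 libraries. The 2 columns numbered 220 were matched by group only, since the corresponding titles carry 120. The design text gives 3 hepatocyte samples, and 4 were used. The members and gene lists were chosen with earlier results of these data known.

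RPKM keeps no read totals. Depth was approximated as the read total at which low values of 944 short transcripts came closest to whole reads. This gave 17200000 to 28050000 reads, a 1.63-fold range. Transcript lengths came from another build, so these depths are approximate only. Values near 0 carry large counting and rounding error. No 2 libraries shared more than 0.437% identical values. Of 20377 symbols, 12638 reached 1 RPKM in at least 4 libraries and were tested as log2(RPKM + 1), a scale that understates the change of low genes, with limma 3.58.1 in R 4.3.3. The model held the 3 groups and no block for the library number, also in the comparisons taken as paired below. Tests were two-sided, and Benjamini-Hochberg adjustment covered every tested gene. A value was called at an adjusted p under 0.05. Ratios are of mean RPKM. All 10 members are named, and so are the 2 symbols most like each member. Pathway genes could be named if their adjusted p was among the 4 lowest called ones of their list, or if the text states their role, as for Insr. The tests were also run on simulated data with independent noise. Those data had no outlying library, shift of scale or shared library numbers, so the check does not cover these features. Python 3.11.15 with pandas 2.3.3, scipy 1.17.1 and matplotlib 3.10.9 did the rest.

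Library numbers shared between groups were checked for pairing, as the correlation of deviations from group means. It was 0.212 to 0.797 for the 4 numbers shared by the ductal groups and 0.133 to 0.512 for the 3 shared by cholangiocyte-derived cells and hepatocytes. These passed a threshold of 0.1 and were taken as paired. The median was 0.22 for shared and -0.06 for unlike numbers. Some unlike numbers also passed, such as 0.464 for hepatocyte-derived 220 with cholangiocyte-derived 118 and 0.458 for cholangiocyte-derived 219 with hepatocyte 225. The threshold therefore does not establish pairing. For hepatocyte-derived cells and hepatocytes it was 0.021 to 0.193, below the threshold of 0.1 for 1 number, so those were not. Alternatives were the pseudocount, the filter, the scaling, library weights, the sum of transcript rows, the replicate block, fitting only the groups compared, and leaving out each library or the libraries that stood apart.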

Additional observations from a re-analysis of the deposited data

Results flagged for a closer look

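Of 33 groups checked for a single library far from the rest, chance would flag about 1 in 20, and 7 were flagged. In hepatocytes the highest library was always 118: Igfbp3 at 3.24 RPKM, Igfbp4 at 875 RPKM, Igfbp5 at 0.7 RPKM and Igfbp7 at 130 RPKM, each far above the other 3. Library 118 also held the most transcripts of macrophage, endothelial and stellate markers among hepatocyte libraries, and their part was not tested. In hepatocyte-derived ductal cells, Igf1r was highest in library 611 at 2.98 RPKM, and Igfbp5 was highest in library 220 at 0.72 RPKM. In cholangiocyte-derived ductal cells, Igfbp7 was lowest in library 611 at 857 RPKM.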

How the results depend on the processing

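Each of 30 member differences (10 genes in 3 comparisons) was recomputed under up to 27 alternatives. Of 803 values, 764 kept direction and side of the threshold, 10 lost the call, 7 gained it and 22 changed sign. The cause was not tested for any. The number of members higher in cholangiocyte-derived cells against hepatocytes was 3 after quantile normalization, and those lower in hepatocyte-derived against cholangiocyte-derived cells numbered 1 with a filter of 5 RPKM and 1 without hepatocyte library 118 and cholangiocyte-derived libraries 118 and 220, since Igfbp5 then fell below the filter. Leaving out 1 library gave 3 to 5 lower members in hepatocyte-derived cells against hepatocytes and the same count otherwise. In hepatocyte-derived cells against hepatocytes, Igfbp4 turned to 0.31 under quantile normalization, and Igfbp5 was -0.08 after rescaling, -0.61 under quantile normalization and -0.08 to 0.22 with 1 library left out. In cholangiocyte-derived cells against hepatocytes, Igfbp6 was -0.74 under quantile normalization. Between the ductal groups, uncalled differences changed sign: Igf1 was 0.05 with rows summed, 0.00 with the replicate block, 0.03 without those 3 libraries and -0.11 to 0.00 with 1 library left out. Igfbp2 was 0.08 with a pseudocount of 0.1, 0.03 under quantile normalization, 0.14 with the block, 0.53 without those 3 libraries, 0.20 without hepatocyte library 118 and hepatocyte-derived library 219 (chosen after seeing the data), and -0.55 to 0.22 with 1 library left out. Igfbp7 was 0.33 with the block. With the last 2 libraries out, Igfbp3 was called at 0.58. In hepatocyte-derived cells against hepatocytes, where the numbers were not taken as paired, the block called Igfbp4 at -0.54 (limma adjusted p = 0.0104). In the comparisons taken as paired the block lost Igfbp6 and changed no other member's call. Low values, such as Igf1r in hepatocytes and Igfbp5, are limited by depth.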
